A study of Mus musculus with 12 samples.

Results

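Hox genes encode homeodomain transcription factors that tell the cells of an embryo where they lie along the body axis and along the limbs. They stand in clusters, and their order along a cluster follows the order in which they are used, from anterior genes at one end to posterior genes at the other, so that genes at the same place of different clusters are paralogs with the same number. Hox proteins bind DNA with PBX and MEIS partners, Polycomb and Trithorax proteins keep the clusters silent or active, and cultured fibroblasts retain a Hox pattern that reflects the body site they came from.

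All probe sets whose annotation gave exactly 1 symbol beginning with Hoxa, Hoxb, Hoxc or Hoxd and a digit were taken as members. They numbered 38 of the 22626 probe sets tested and stood for 32 of the 12393 genes. Of the 39 protein-coding Hox genes in RefSeq, 31 were measured in this way, and the antisense transcript Hoxa11os made the other member. Hoxa, on chromosome 6, had 10 genes and 13 probe sets, and Hoxb, on chromosome 11, had 9 genes and 10 probe sets. Hoxc, on chromosome 15, had 6 genes and 8 probe sets, and Hoxd, on chromosome 2, had 7 genes and 7 probe sets. Another 3 probe sets listed several Hox symbols and were left out. Paralogs 1 to 3 are called anterior here, 4 to 8 central and 9 to 13 posterior. Where a gene had several probe sets, the brightest represented it. Dim probe sets, whose mean over the arrays lay below the 40th percentile of all probe sets, made up 16 of the 38 Hox probe sets.

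The study asked how loss of HtrA2, a protease that resides between the mitochondrial membranes, alters the transcriptional response of primary mouse embryonic fibroblasts (MEFs) to rotenone, an inhibitor of respiratory complex I. The 12 arrays fell into 4 groups of 3: HtrA2 KO cells with 1 µM rotenone for 4 h, HtrA2 KO cells with vehicle, WT cells with rotenone and WT cells with vehicle, all at passage 4. The labels give neither the age nor the body part of the embryos, and they do not say whether replicates were separate embryos or cultures. Each p-value is thus set against the spread among these 12 samples alone, and that spread may be technical. Vehicle and rotenone cells of one genotype and replicate number may share a culture.

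The 3 WT rotenone arrays carry a knockout entry in the genotype field, but WT in the title, source and description fields, and they were grouped as WT. Htra2 averaged 7.77 ± 0.09 in KO rotenone and 7.67 ± 0.17 in KO vehicle cells, against 9.08 ± 0.06 in WT rotenone and 9.06 ± 0.24 in WT vehicle cells (log2, SD, n = 3 each), so all WT rotenone arrays lay at the WT level. All 15 fibroblast markers were measured and none was dim. Their summed level ran from 16.28 to 16.58 on KO arrays and from 16.23 to 16.51 on WT arrays. The arrays numbered 3 stood apart from those numbered 1 and 2 in a contrast taken over all 4 groups together. In it 5409 probe sets, 23.9%, passed an adjusted p of 0.05 (limma, Benjamini-Hochberg over all probe sets). Results on Hox genes are therefore given over all arrays, with the replicate number as a block where this altered a call, and over numbers 1 and 2 alone. RNA came from whole cultures, so fewer cells that express a gene cannot be told apart from less of its RNA per cell.

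The promoters of 3 posterior genes that the results below turn on are shown because they differ in the density of CpG dinucleotides, the targets of DNA methylation and a mark of promoters that Polycomb and Trithorax proteins bind. Each is the 250 bases before the annotated start, read 5′ to 3′ on the strand of the gene, from RefSeq on GRCm38.p6, with CpG in capitals. Hoxa9 lies at chr6:52227371-52227620 on the minus strand, Hoxd10 at chr2:74691641-74691890 and Hoxd13 at chr2:74667975-74668224, both on the plus strand.
Hoxa9: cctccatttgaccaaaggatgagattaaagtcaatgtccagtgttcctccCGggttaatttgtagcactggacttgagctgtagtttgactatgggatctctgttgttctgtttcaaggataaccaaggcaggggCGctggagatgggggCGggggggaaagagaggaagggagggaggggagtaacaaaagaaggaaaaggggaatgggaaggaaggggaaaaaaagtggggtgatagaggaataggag
Hoxd10: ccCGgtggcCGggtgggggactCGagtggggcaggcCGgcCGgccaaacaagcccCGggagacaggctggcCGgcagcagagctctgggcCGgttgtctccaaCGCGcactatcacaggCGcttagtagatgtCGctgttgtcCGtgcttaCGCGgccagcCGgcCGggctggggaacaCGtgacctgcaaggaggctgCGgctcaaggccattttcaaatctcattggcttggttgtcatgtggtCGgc
Hoxd13: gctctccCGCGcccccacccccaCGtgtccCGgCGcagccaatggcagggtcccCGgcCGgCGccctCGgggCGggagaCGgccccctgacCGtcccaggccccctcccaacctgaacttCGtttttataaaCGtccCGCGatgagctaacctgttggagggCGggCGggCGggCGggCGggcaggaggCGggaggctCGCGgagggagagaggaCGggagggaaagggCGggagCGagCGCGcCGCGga
The Hoxa9 window held 3 CpGs, 0.266 of the number its C and G content would give by chance. The Hoxd10 window held 20 CpGs, a ratio of 0.755, and that of Hoxd13 held 31, a ratio of 0.901. Over the 21 windows matched to 19 of the 32 Hox genes the median ratio was 0.687, against 0.374 over all 32851 promoters, and the number of CpGs ran from 2 to 35. The windows were also searched on both strands for 3 motifs. TTTATG, the core bound by CDX factors, which switch on central and posterior Hox genes, occurred in 2 of 21 Hox windows, 9.52%, and in 10.8% of all promoters. TGATNNAT, a site for PBX and HOX proteins together, occurred in 3 Hox windows, those of Hoxa2, Hoxb1 and Hoxd11 (14.3%, against 7.68%). TATAAA, the sequence of the TATA box, occurred in the windows of Hoxa10, Hoxa11os and Hoxd13, 14.3% of Hox windows against 12.4% of all promoters. Matches were counted at any position in the window, so they need not be working sites.

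The direction of the difference between KO and WT cells varied with the cluster and with the place of a gene in it. Over both treatments, all 5 posterior members of Hoxa lay lower in KO cells, with a median log2 difference of -0.32, and 4 of the 5 posterior Hoxd genes did too, with a median of -0.24. All 9 Hoxb genes lay higher, with a median of 0.19, and so did 5 of the 6 Hoxc genes, with a median of 0.23. Hoxd as a whole was split, with 3 genes higher and 4 lower and a median of -0.02. By class over all clusters, 11 of 12 central genes lay higher and 10 of 14 posterior genes lower. Of the posterior Hoxa and Hoxd members, Hoxa11os, Hoxa13, Hoxd10, Hoxd12 and Hoxd13 had dim probe sets. The median over all 12393 genes was 0.01. Without a block, 0 of the 38 Hox probe sets passed an adjusted p of 0.05 in limma, against 0.00884% of all probe sets. An unadjusted p under 0.05 was held by 13 of the 38, against 1356 of all 22626. With the replicate number as a block, 3 of 38 passed, 7.89%, against 0.552% of all probe sets. An unadjusted p under 0.05 was then held by 17 of the 38, against 2973 of all 22626. The 3 that passed were Hoxa9 and Hoxd10, which fell, and Hoxc8, which rose. No marker on the fibroblast list or on the 6 lists of other cell types passed this comparison with or without the block. The summed leukocyte marker level ran from 10.28 to 11.05 on KO arrays and from 10.20 to 10.97 on WT arrays.

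Hoxa9, a posterior gene best known for its part in blood progenitors and in leukaemia, had the lower level under the most settings. Its value was 7.81, 7.80 and 8.46 on the KO rotenone arrays and 8.17, 8.13 and 8.74 on the KO vehicle arrays, against 8.88, 8.49 and 9.04 on the WT rotenone and 9.01, 8.70 and 9.05 on the WT vehicle arrays (log2, numbers 1, 2 and 3). The KO array was the lower of the pair in all 6 same-numbered pairs, by 0.31 to 1.06, but the groups overlapped, since the KO vehicle array numbered 3 stood above 2 WT arrays numbered 2. Hoxa9 fell by 1.60-fold in KO cells (log2 difference -0.68, SE 0.08, limma adjusted p = 0.00194 with the block; SE 0.15 and adjusted p = 0.519 without it). It passed with the block in each of 12 fits that left out 1 array, with adjusted p between 0.000931 and 0.0274. When the vehicle and rotenone arrays of one number were averaged, leaving 3 KO against 3 WT values, its adjusted p was 0.0550 with the block and 0.9993 without it. A second Hoxa9 probe set, also not dim, differed by only -0.04 (SE 0.07, adjusted p = 0.814 with the block), so the lower signal was seen by 1 of the 2 probe sets. The probe sets may cover different transcripts of the gene, which was not tested.

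Hoxd10 patterns the hindlimb and the motor neurons that supply it. It stood at 6.50, 6.66 and 6.76 in KO rotenone and 6.29, 6.25 and 7.05 in KO vehicle cells, against 7.11, 6.996 and 7.08 in WT rotenone and 7.16, 7.15 and 7.22 in WT vehicle cells. The 6 WT arrays lay within a narrow band, and 5 of the 6 KO arrays lay below all of them. The exception was the KO vehicle array numbered 3. Hoxd10 fell by 1.45-fold (-0.53, SE 0.10, limma adjusted p = 0.0261 with the block; 0.519 without it). Without the block Hoxd10 passed in 1 of the 12 fits that left out 1 array. That fit left out the exception, the KO vehicle array numbered 3 (limma adjusted p = 0.00933). In the other fits adjusted p reached 0.995. Its probe set was dim.

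Hoxc8, a central gene of the thorax, went the other way. It stood at 9.51, 9.90 and 9.31 in KO rotenone and 9.74, 10.23 and 9.58 in KO vehicle cells, against 8.93, 8.96 and 8.98 in WT rotenone and 9.34, 9.41 and 9.64 in WT vehicle cells. Within rotenone the groups did not overlap, and within vehicle the number 3 pair differed by -0.06. Hoxc8 rose by 1.42-fold in KO cells (0.50, SE 0.10, limma adjusted p = 0.0435 with the block; 0.618 without it). Hoxc8 and Hoxd10 each passed with the block in 4 of the 12 fits that left out 1 array, and neither passed without any 1 of the 8 arrays numbered 1 or 2, where adjusted p reached 0.194 for Hoxc8 and 0.136 for Hoxd10. Averaging the vehicle and rotenone arrays gave adjusted p of 0.235 for Hoxc8 and 0.107 for Hoxd10 with the block.

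**Figure D1:**
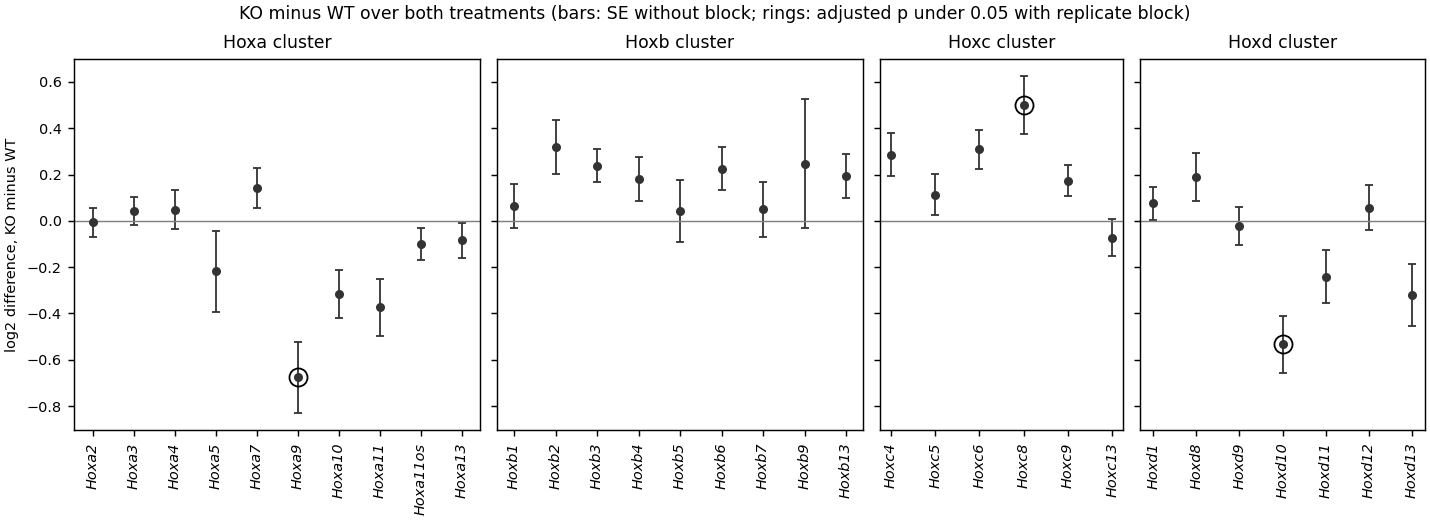
Log2 difference between KO and WT cells (y axis) for each Hox gene in paralog order within its cluster (x axis), over both treatments, as points with SE bars from the fit without the block; rings mark an adjusted p under 0.05 with the block. Hoxa9, Hoxc8 and Hoxd10 are ringed, posterior Hoxa and Hoxd genes lie mostly below 0 and Hoxb and central Hoxc genes mostly above it.

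Separately by treatment, the Hox genes gave fewer calls. In rotenone, 0 of 38 Hox probe sets passed without the block, against 0.00442% of all, and 1 passed with it, 2.63% against 0.0398% of all. This was Hoxa9, which fell by 1.71-fold (-0.78, SE 0.11, limma adjusted p = 0.0262 with the block; 0.835 without it), and it passed in 5 of 12 fits that left out 1 array. In vehicle, 0 of 38 passed in limma without the block, against 0.00442% of all, and 0 with it, against 0.0177%. An unadjusted p under 0.05 was held by 7 and 10 of the 38, against 235 and 667 of all 22626. Hoxa9 differed by -0.58 in vehicle (SE 0.11, adjusted p = 0.353 with the block) and Hoxd10 by -0.65 (SE 0.14, adjusted p = 0.422). The genotype differences in rotenone and in vehicle were not shown to differ from each other for any Hox gene, as the interaction below shows.

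The differences within same-numbered pairs, taken from the same values as the fits, were also counted. In all 6 pairs the KO array was the lower for 3 Hox probe sets, those of Hoxa9, Hoxa11 and Hoxd10 (7.89%, against 3.99% of all probe sets). It was the higher in all 6 pairs for 5 probe sets, belonging to Hoxb3, Hoxc4, Hoxb4 by the less bright of its probe sets and Hoxc6 by 2 of its 3 (13.2%, against 3.04%). The brighter Hoxb4 probe set was higher on the KO array in 5 of 6 pairs. Of the genes in both lists, only Hoxa9 and Hoxd10 had passed the fit with the block. Hoxc8, which had passed it too, was lower on the KO array in 1 of 6 pairs. Pairs share a treatment and may share a culture, so the 6 are not 6 independent comparisons.

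**Figure D2:**
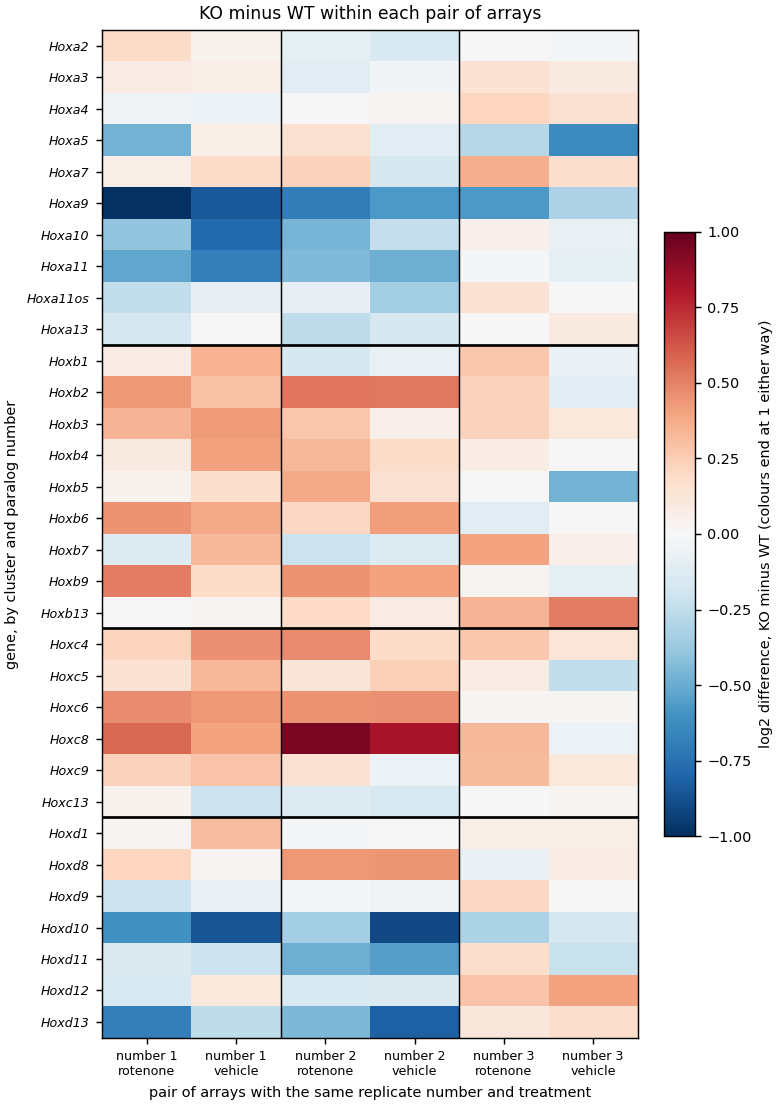
Log2 difference between the KO and the WT array (colour, ending at 1 either way) in each of the 6 pairs with the same treatment and replicate number (x axis), for the Hox genes by cluster and paralog number (y axis). The Hoxa9 and Hoxd10 cells are negative in all 6 pairs, and for Hoxa10 and Hoxa11 the pairs numbered 3 are paler than the other 4.

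More Hox probe sets were called for genotype without the arrays numbered 3. Over the 8 arrays numbered 1 and 2, with the block, 13 of 38 Hox probe sets of 12 genes passed, 34.2%, against 3.43% of all probe sets. The 6 that fell were all posterior genes of Hoxa and Hoxd, and the 7 that rose were all in Hoxb and Hoxc, among them the posterior Hoxb9. These 13 were picked by passing in numbers 1 and 2, so their values in number 3 are given below as a description only, and the test of the difference between the numbers, described with Hoxd13, called 1 of 38. Vehicle and rotenone arrays of one number may share a culture, so the 8 arrays may not be 8 independent samples. Genotype p-values from them, here and below, may then be too small. With such arrays averaged over all 3 numbers, 0 Hox probe sets passed for genotype with the block.

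Among the posterior genes, Hoxa11, which patterns the forearm and the uterus, had 7.46, 7.17 and 7.89 in KO rotenone and 7.73, 7.63 and 7.85 in KO vehicle cells, against 7.99, 7.62 and 7.90 in WT rotenone and 8.42, 8.11 and 7.95 in WT vehicle cells. Over numbers 1 and 2 it fell by 0.53 on the log2 scale (limma adjusted p = 0.000131), whereas in number 3 the difference was -0.06. Over all arrays Hoxa11 differed by -0.37 (SE 0.10, adjusted p = 0.126 with the block). Hoxa11os, the antisense transcript of the same locus, differed by -0.10 (SE 0.07, adjusted p = 0.542). Hoxa10, its neighbour, which patterns the thigh, had 7.71, 7.49 and 8.03 in KO rotenone and 7.79, 8.13 and 8.23 in KO vehicle cells, against 8.10, 7.96 and 7.98 in WT rotenone and 8.57, 8.37 and 8.30 in WT vehicle cells. Its difference was -0.47 over numbers 1 and 2 (adjusted p = 0.00209) and -0.01 in number 3. Hoxa13, at the posterior end of the cluster, differed by -0.08 over all arrays (SE 0.07), with a dim probe set.

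Hoxd13, the most posterior gene of Hoxd, patterns the digits and the genitalia. It was the 1 Hox gene called when the genotype difference was compared between the numbers. It had 6.42, 6.71 and 7.10 in KO rotenone and 6.82, 6.45 and 7.18 in KO vehicle cells, against 7.10, 7.16 and 6.99 in WT rotenone and 7.07, 7.27 and 6.999 in WT vehicle cells. The 4 KO arrays numbered 1 and 2 lay below every WT array, and both KO arrays numbered 3 lay above their WT partners. The KO minus WT difference was 0.14 in number 3 and -0.55 in numbers 1 and 2, and these differed by 0.69 (SE 0.16, limma adjusted p = 0.0413). This made 1 of 38 Hox probe sets, 2.63%, against 1.42% of all probe sets. An unadjusted p under 0.05 was held by 16 of the 38, against 3282 of all 22626. Hoxd13 passed in 3 of the 12 fits that left out 1 array, and its probe set was dim. Without dim probe sets 0 Hox probe sets passed. The spread in this test came from vehicle and rotenone arrays of one genotype and number, which may share a culture. Number 3 may then hold a single culture of each genotype, and the p-values may be too small.

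For the other genes the same contrast gave values without a call. KO minus WT was less negative or more positive in number 3 than in numbers 1 and 2 for all 10 posterior Hoxa and Hoxd members. Their median was 0.39, against 0.02 over all genes. This grouping follows the direction of the genotype difference on these same arrays, so the values are a description only. Over the posterior members of all clusters, 13 of 14 had a positive value, with a median of 0.33. In Hoxb 6 of 9 genes had a negative value, with a median of -0.22, and in Hoxc 4 of 6, also with a median of -0.22. Hoxc8 came closest to the threshold among these. Its difference was 0.13 in number 3 and 0.69 in numbers 1 and 2 (adjusted p = 0.0701 for the contrast).

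Hoxd11, which shapes the forearm with Hoxa11, had 6.999, 6.91 and 7.45 in KO rotenone and 7.16, 6.80 and 7.36 in KO vehicle cells, against 7.14, 7.40 and 7.27 in WT rotenone and 7.37, 7.35 and 7.59 in WT vehicle cells. It fell by 0.35 over numbers 1 and 2 (limma adjusted p = 0.0306), and the difference was -0.03 in number 3. Over numbers 1 and 2, Hoxd9 and the dim Hoxd12 each differed by -0.09 (SE 0.09, adjusted p = 0.829 and 0.827), and over all arrays by -0.02 and 0.06.

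Of the genes that lay higher in KO cells, Hoxb2, an anterior gene of the hindbrain, had 9.42, 9.33 and 8.82 in KO rotenone and 9.16, 9.30 and 9.0004 in KO vehicle cells, against 8.99, 8.79 and 8.59 in WT rotenone and 8.87, 8.77 and 9.11 in WT vehicle cells. It rose by 0.45 over numbers 1 and 2 (limma adjusted p = 0.00155), and over all arrays it differed by 0.32 (SE 0.10, adjusted p = 0.198 with the block). Hoxc4, a central gene of the neck and upper thorax, had 7.74, 7.92 and 7.93 in KO rotenone and 8.01, 7.86 and 8.17 in KO vehicle cells, against 7.52, 7.45 and 7.66 in WT rotenone and 7.55, 7.67 and 8.05 in WT vehicle cells. It was higher on the KO array of every pair, and the groups overlapped through the WT vehicle array numbered 3. Hoxc4 rose by 0.33 over numbers 1 and 2 (adjusted p = 0.0280). Hoxc6, of the anterior thorax, rose by 0.45 and 0.38 there by its 2 brighter probe sets, and Hoxb6 rose by 0.36. The posterior gene Hoxb9 rose by 0.39 there (limma adjusted p = 0.0101). In number 3 the difference was 0.06 for Hoxb2, 0.19 for Hoxc4, -0.06 for Hoxb6 and -0.03 for Hoxb9. For the 2 brighter Hoxc6 probe sets it was 0.02 and 0.15. The other Hoxc6 probe set, a dim one, differed by 0.17 over numbers 1 and 2 (adjusted p = 0.478).

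**Figure D3:**
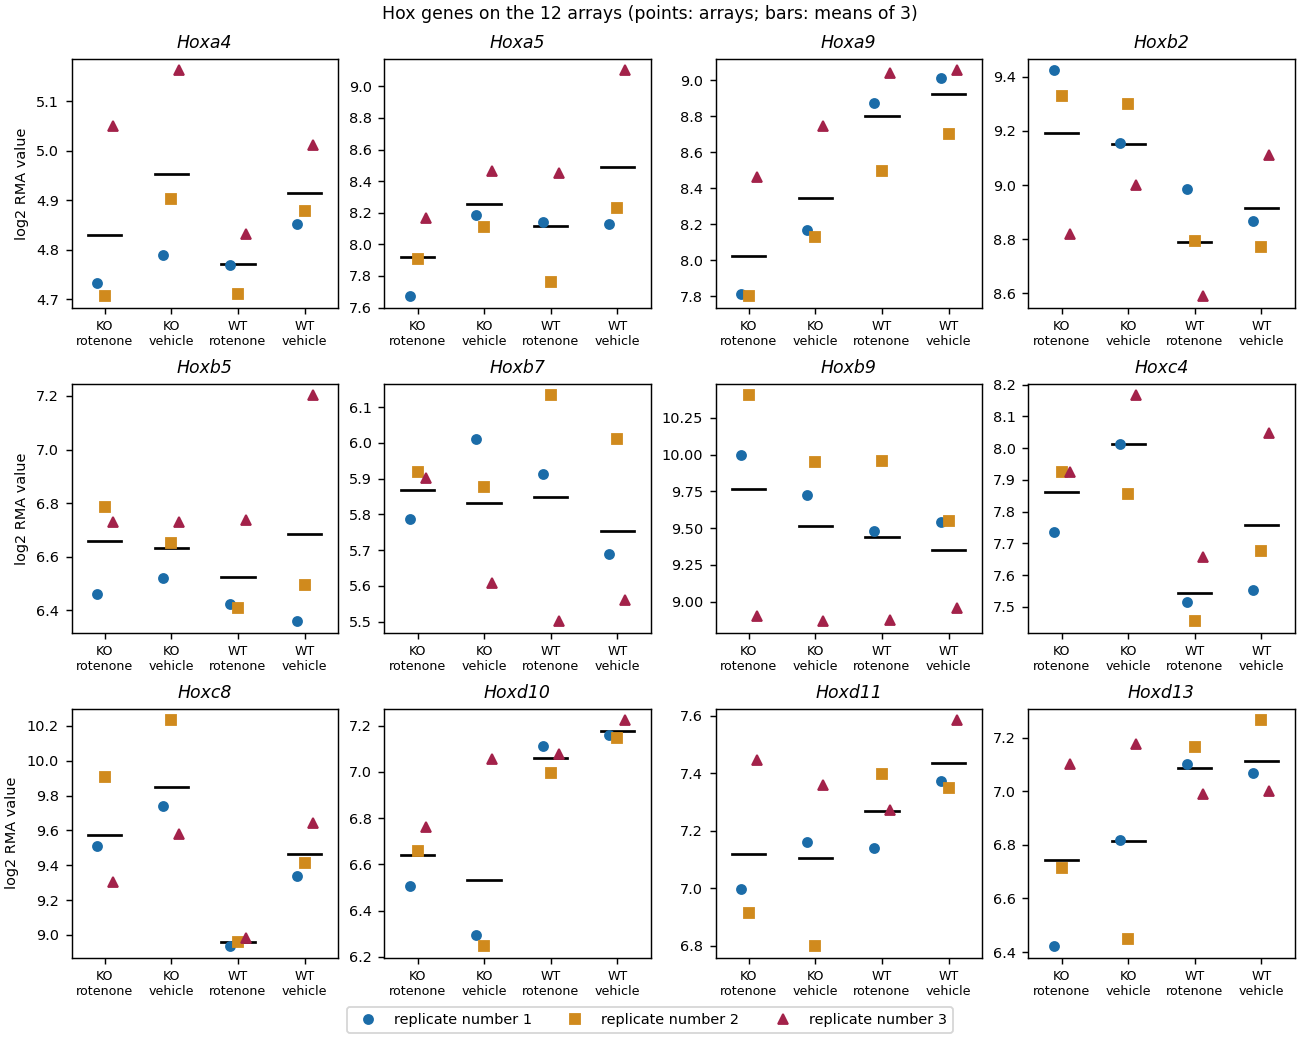
Log2 RMA values (y axis) of 12 Hox genes on the 12 arrays, with 1 panel a gene, groups along the x axis, a marker for each replicate number and bars for the means of 3. Hoxa9 and Hoxd10 sit lower in both KO groups than in the WT groups, Hoxc8 sits higher, and the Hoxb9 arrays numbered 3 lie at 8.87 to 8.96 in all 4 groups.

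Cluster Hoxa lies on the chromosome of Htra2, with 164 protein-coding genes annotated between Hoxa13 and Htra2. Across the arrays, KO cells differed from WT cells with the block at 1.26% of chromosome 6 probe sets (15 of 1193), against 0.517% of those on other chromosomes (99 of 19166). The chromosome 6 set was not cleared of Htra2 itself, the Hoxa members or their neighbours, and Hoxa9 was among the 15. In Hoxa 1 of 10 genes passed, with a cluster median of -0.09. In the other 3 clusters 2 of 22 genes passed, with a median of 0.14. The lower levels were confined neither to Hoxa nor to chromosome 6, since Hoxd10 lies on chromosome 2, and anterior and central Hoxa genes had a median of 0.02 and 0.05. An effect of Htra2 loss and one of chromosome 6 sequence linked to the targeted allele cannot be told apart. Of the 8 measured neighbours of Hoxa, Snx10, a sorting nexin of endosomes, fell in KO cells (-0.47, SE 0.11, limma adjusted p = 0.00400 with the block; 0.584 without it), and the other 7 did not pass. Of 8, 12 and 9 measured neighbours of Hoxb, Hoxc and Hoxd, 0 passed in either fit.

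Other genes that carry positional information were examined for the same comparison. Of 36 measured homeobox and T-box genes outside the clusters, 1 passed with the block and 0 without it. Of all 12393 genes, 80 passed with the block and 2 without it. En1, a homeobox gene of the ventral limb and trunk dermis, rose by 0.67 in KO cells (SE 0.10, limma adjusted p = 0.00564 with the block; 0.144 without it). It had 6.68, 7.02 and 6.61 in KO rotenone and 6.81, 7.17 and 6.86 in KO vehicle cells, against 6.14, 5.78 and 5.88 in WT rotenone and 6.42, 6.36 and 6.56 in WT vehicle cells. All 6 KO arrays lay above all 6 WT arrays, by a dim probe set. None of the 8 measured Hox cofactors, 16 CDX and retinoic acid genes, 25 Polycomb genes or 10 Trithorax and MLL genes passed with or without the block, and their medians were 0.05, 0.02, 0.02 and -0.05.

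In the contrast of the genotype difference between numbers, 3 of the 16 measured CDX and retinoic acid genes passed, 1 higher and 2 lower, against 1.61% of all genes. As given with Hoxd13, the p-values of this contrast may be too small if vehicle and rotenone arrays share a culture. Of the 16, 8 were dim, and the list median was -0.03. Aldh1a2 and Aldh1a3, which make retinoic acid, had a more negative KO minus WT difference in number 3 than in numbers 1 and 2 (-1.03, SE 0.14, limma adjusted p = 0.00111, and -1.32, SE 0.22, adjusted p = 0.00536). Crabp2, which carries retinoic acid to the nucleus, had a more positive one (0.95, SE 0.16, adjusted p = 0.00643). Of the 36 positional genes 2 passed, the limb and mesenchyme homeobox genes Pitx1 and Prrx2, with more positive differences (0.64, adjusted p = 0.0230, and 0.62, adjusted p = 0.0333). Their part in the Hox values was not tested.

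After 4 h of rotenone, no Hox probe set passed the threshold on the deposited values of all 12 arrays, with or without the block. Over both genotypes, 23 of 32 Hox genes lay lower with rotenone, with a median of -0.06 against 0.03 over all genes. In limma 0 of 38 Hox probe sets passed, without the block (0.217% of all) and with it (2.46% of all). An unadjusted p under 0.05 was held by 8 and 11 of the 38, against 1788 and 3393 of all 22626. The lowest values belonged to Hoxc8, at -0.39 (SE 0.10, adjusted p = 0.0576 with the block), Hoxa10 and Hoxa5, both at -0.35 (adjusted p = 0.0721 and 0.0704).

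All 4 central Hoxc genes lay lower with rotenone, with a median of -0.20. In all 6 pairs the rotenone array was the lower for 8 Hox probe sets, 21.1%, against 4.85% of all, and it was the higher in all 6 for 0 of 38, against 6.51%. The 8 were those of Hoxa4, Hoxa9, Hoxa10, Hoxc8, Hoxc9 and all 3 of Hoxc6. For Hoxa4 and Hoxa9 this was the brighter probe set, a dim one for Hoxa4. The other probe set of each gene was lower with rotenone in 4 of 6 pairs. Hoxc8 differed between rotenone and vehicle by -0.23, -0.33 and -0.27 in KO cells and by -0.41, -0.45 and -0.66 in WT cells (numbers 1, 2 and 3). Hoxa10 differed by -0.08, -0.64 and -0.19 in KO cells and by -0.47, -0.41 and -0.32 in WT cells. All of these point down. With the block Hoxc8 passed after quantile normalization (adjusted p = 0.0475) and in 3 of the 12 fits that left out 1 array, where its adjusted p ran from 0.0337 to 0.183.

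**Figure D4:**
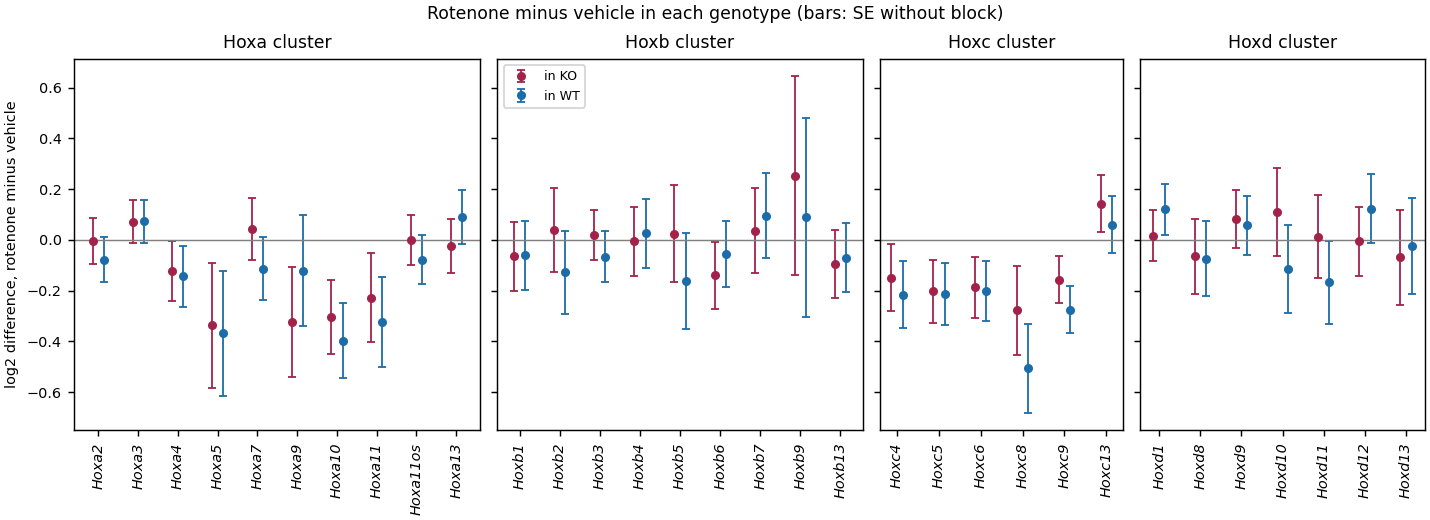
Log2 difference between rotenone and vehicle (y axis) for each Hox gene in paralog order within its cluster (x axis), as points with SE bars from the fit without the block, in KO and in WT cells. Central Hoxc genes lie below 0 in both genotypes, and Hoxb and Hoxd genes lie around 0.

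Hoxa5, a central gene needed for lung and upper thoracic skeleton, had 7.67, 7.91 and 8.17 in KO rotenone and 8.19, 8.11 and 8.46 in KO vehicle cells, against 8.14, 7.76 and 8.45 in WT rotenone and 8.13, 8.23 and 9.10 in WT vehicle cells. The rotenone array was the lower in 5 of 6 pairs, the WT pair numbered 1 differing by 0.01. Within each genotype the counts were no higher. In KO cells 0 of 38 Hox probe sets passed in limma, against 0.00884% of all without the block and 0.301% with it. An unadjusted p under 0.05 was held by 2 and 5 of the 38, against 829 and 1885 of all 22626. In WT cells 0 of 38 passed, against 0.0133% and 0.628%. An unadjusted p under 0.05 was held there by 3 and 7 of the 38, against 986 and 2187 of all 22626. The rotenone effect in KO cells did not pass a test against that in WT cells for any Hox probe set, with 0 of 38 called in limma, 0 of 38 at an unadjusted p under 0.05, and 0% of all probe sets called, in either fit. Of all probe sets, 82 had an unadjusted p under 0.05 without the block and 295 with it. For Hoxc8 the 2 effects differed by 0.23 (SE 0.20 with the block, adjusted p = 0.9998), and for Hoxd10 by 0.22 (SE 0.19). Over numbers 1 and 2 alone, with the block, 3 Hox probe sets passed for rotenone over both genotypes, 7.89%, against 4.66% of all. They were Hoxa11 (-0.41, limma adjusted p = 0.00280), Hoxa10 (-0.40, adjusted p = 0.00877) and Hoxc8 (-0.35, adjusted p = 0.0198).

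The arrays numbered 3 differed from numbers 1 and 2 at 9 of 38 Hox probe sets, 23.7%, which is near the 23.9% of all probe sets. Of these 7 were higher, 18.4% against 12.6% of all, and 2 were lower, 5.26% against 11.3%. This contrast was defined because these arrays stand apart, and the labels do not say what the number stands for.

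Hoxb9, a posterior gene of the rib-bearing trunk, had the largest difference of the Hox genes here. On the arrays numbered 3 it stood at 8.90 in KO rotenone, 8.87 in KO vehicle, 8.88 in WT rotenone and 8.96 in WT vehicle cells. On the KO arrays numbered 1 and 2 it stood at 9.99 and 10.40 in rotenone and 9.72 and 9.95 in vehicle, and on the WT arrays at 9.48 and 9.96 in rotenone and 9.54 and 9.55 in vehicle. All 4 arrays numbered 3 lay below all other 8. Hoxb9 was 1.90-fold lower in number 3 (-0.92, SE 0.10, limma adjusted p = 8.86e-06), and it passed against number 1 alone (-0.78) and number 2 alone (-1.06). The same difference was 0.45 for its paralog Hoxa9, 0.02 for Hoxc9 and 0.14 for Hoxd9.

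Hoxa5 and Hoxa9 were higher in number 3, by 0.53 (SE 0.10, limma adjusted p = 0.00142) and 0.45 (SE 0.09, adjusted p = 0.00136). For Hoxa5 the 4 arrays numbered 3 averaged 8.55 ± 0.39 and the other 8 averaged 8.02 ± 0.21 (SD). Hoxb9, Hoxa5 and Hoxa9 passed in all 12 fits that left out 1 array, and they were the 3 that passed when vehicle and rotenone arrays were averaged. Within the averaged arrays Hoxa9 had an adjusted p of 0.0135, Hoxa5 of 0.00468 and Hoxb9 of 0.000135.

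The other calls were smaller. Hoxb5, a central gene that helps place the shoulder girdle, was 0.34 higher by a dim probe set (SE 0.10, limma adjusted p = 0.0195). On the arrays numbered 3 it had 6.73 in KO rotenone, 6.73 in KO vehicle, 6.74 in WT rotenone and 7.20 in WT vehicle cells, and 6.36 to 6.79 on the other 8 arrays. Without the WT vehicle array numbered 3 the difference was 0.19 and the adjusted p 0.149. Hoxb7, another central gene of the cluster with a dim probe set, was 0.28 lower in number 3, a log2 difference of -0.28 (SE 0.09, adjusted p = 0.0368). On the arrays numbered 3 it had 5.90 in KO rotenone, 5.61 in KO vehicle, 5.50 in WT rotenone and 5.56 in WT vehicle cells, and 5.69 to 6.13 on the other 8 arrays. Hoxa4, a central gene, was 0.22 higher (adjusted p = 0.0276) by its brighter probe set, also a dim one. On the arrays numbered 3 that probe set had 5.05 in KO rotenone, 5.16 in KO vehicle, 4.83 in WT rotenone and 5.01 in WT vehicle cells, against 4.71 to 4.90 on the others. The dimmer Hoxa4 probe set differed by -0.17 (adjusted p = 0.0694), in the opposite direction. Hoxc4 and Hoxd11 were 0.23 and 0.27 higher (adjusted p = 0.0356 and 0.0422), and so was a second, dim Hoxa3 probe set, by 0.26 (adjusted p = 0.0256), while the brighter one differed by -0.06. Hoxa4, Hoxb7, Hoxc4 and Hoxd11 passed in 3 to 6 of the 12 fits that left out 1 array.

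**Figure D5:**
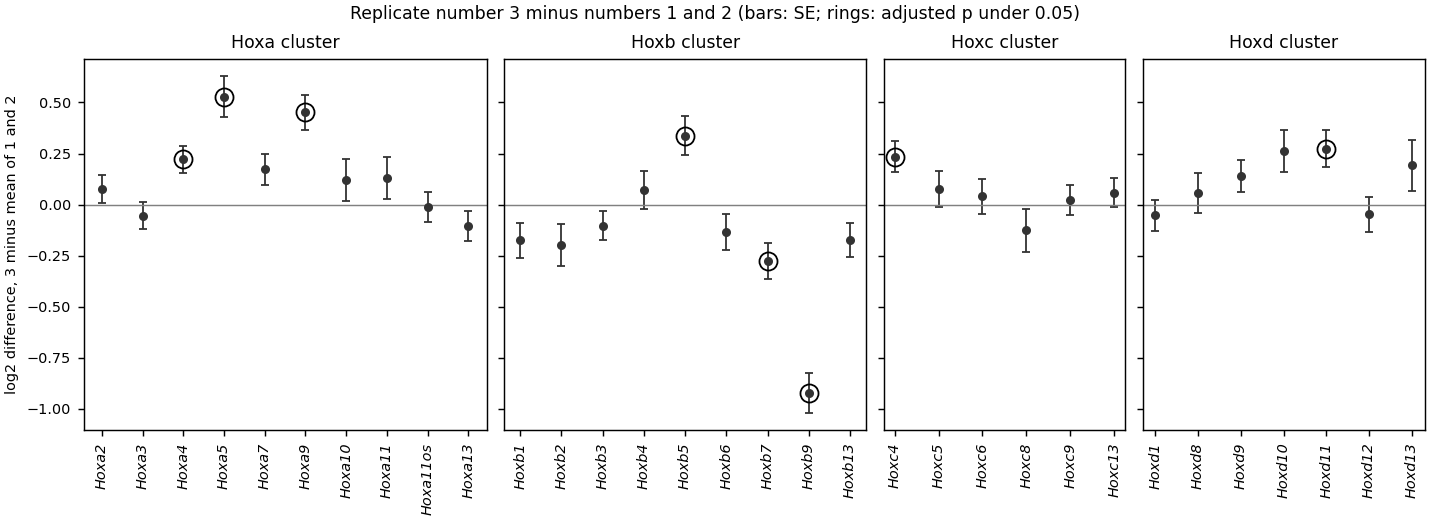
Log2 difference between the arrays numbered 3 and those numbered 1 and 2 (y axis) for each Hox gene in paralog order within its cluster (x axis), as points with SE bars; rings mark an adjusted p under 0.05. Hoxb9 lies lowest, at -0.92, and Hoxa5 highest, at 0.53.

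Over all genes, 24.8% passed the number 3 contrast, and the lists of genes that work with or maintain the clusters are given beside that share. Among the Polycomb genes 8 of 25 were higher and 2 lower, with a list median of -0.02, against -0.04 over all genes. The higher ones included Ezh2, the histone methyltransferase of the complex (1.03, SE 0.08, limma adjusted p = 3.25e-07), Suz12, its partner (0.46), and Cbx2, a reader subunit (0.47). Of the 10 Trithorax and MLL genes 4 were higher, including Psip1, a chromatin tether of MLL (0.91), and Dpy30, a core subunit (0.64). Of the 8 cofactors 1 passed, Pknox1, a relative of MEIS proteins, which was lower (-0.69, SE 0.08, adjusted p = 1.41e-05). Of the 16 CDX and retinoic acid genes 1 was higher and 3 were lower, and of the 36 positional genes 5 were higher, led by Tbx18 (0.87), and 3 lower, led by Irx3 (-0.77). The leukocyte markers moved with number 3 too. Of 10 measured, 5 were dim and 7 were higher, and their summed level ran from 10.94 to 11.05 on the arrays numbered 3, against 10.20 to 10.42 on the others. Epithelial markers, with 3 of 10 higher, ran from 10.84 to 11.18 against 10.41 to 10.65. Cartilage and bone markers, with 2 of 8 higher, ran from 10.33 to 10.39 against 9.94 to 10.17, and muscle markers, with 3 of 10 higher, from 12.03 to 12.16 against 11.75 to 12.10. Of neural markers 1 of 14 was higher and 2 were lower, and of endothelial markers 1 of 10 was lower. Of fibroblast markers 3 of 15 were higher and 5 lower, and their summed level ran from 16.23 to 16.40 against 16.37 to 16.58. Their part in the Hox differences was not tested.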

How the data were processed

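RNA of 12 MEF samples was hybridised to Affymetrix arrays. The deposited log2 values come from RMA, a step the authors ran; the tool is named in the submitters' processing notes and no version was found in them. They ran from 3.19 to 14.59, with array medians from 7.53 to 7.58, so a change shared by most transcripts would be hidden. No detection calls were used, and precision is limited by how few arrays there are. No 2 arrays held identical values.

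After leaving out 64 control probe sets, 22626 were fitted in limma 3.58.1 (R 4.3.3; lmFit and eBayes, two-sided, 4 group means) with Benjamini-Hochberg adjustment over all of them and a threshold of 0.05. A second fit added the replicate number as a block, another compared number 3 with numbers 1 and 2 with group in the model, and the last compared the genotype difference between the numbers. Genes were named through GEO's platform annotation, checked against RefSeq (GRCm38.p6), and represented by the probe set with the highest mean. Whether replicate numbers pair the arrays was checked from deviations from group means: r lay between 0.289 and 0.829 for the 18 pairs of arrays with one number, and for 11 of 12 arrays the closest array had the same number. Within numbers 1 and 2, same-numbered r ran from 0.289 to 0.554 and unlike-numbered r from -0.05 to 0.48. On this evidence arrays were treated as paired by number, since the labels say nothing of it.

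Genes given with every array's value were those passing any comparison, with or without the block, and those with the largest difference in their cluster between genotypes, treatments or numbers, 12 in all; Hoxa10 and Hoxa11 were added after their values were seen. The members, lists and tests were chosen with earlier results of these data known. Alternatives were leaving out each array, the arrays numbered 3 or dim probe sets, quantile normalization, a trended robust prior, the mean over a gene's probe sets, and averaged vehicle and rotenone arrays. The fits were tested on simulated data.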

Additional observations from a re-analysis of the deposited data

Results flagged for a closer look

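The genotype difference of Hoxd13 passed an interaction test between replicate numbers. KO minus WT was 0.14 on the log2 scale in number 3 and -0.55 in numbers 1 and 2, a difference of 0.69 (SE 0.16, limma adjusted p = 0.0413). Both KO arrays numbered 3 stood above their WT partners and all 4 KO arrays numbered 1 and 2 below theirs. The adjusted p ran from 0.0193 to 0.227 over the 12 fits that left out 1 array. Vehicle and rotenone arrays of one genotype and number may share a culture, so these p-values may be too small.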

How the results depend on the processing

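Counts of Hox probe sets past the threshold were recomputed under each alternative, and none of the differences recomputed changed sign where it had been called. The replicate block moved KO against WT over both treatments to 3 and in rotenone to 1, against 0 without it, and changed no other call of a Hox gene. Only the arrays numbered 1 and 2, with the block, gave 13 for KO against WT over both treatments, 6 in rotenone and 5 in vehicle, and 3 for rotenone over both genotypes and 1 in WT cells. With averaged vehicle and rotenone arrays, 0 Hox probe sets passed for KO against WT, with the block (6 of all probe sets) and without it (0 of all). With the block, counts for KO against WT over both treatments were 2 without dim probe sets, 3 after quantile normalization, 3 with a trended robust prior and 3 with the mean over a gene's probe sets. For KO against WT in rotenone, the block gave 1 without dim probe sets and 1 with that prior, and for rotenone over both genotypes 1 after quantile normalization. Leaving out 1 array with the block gave 1 to 5 for KO against WT over both treatments, 0 to 1 in rotenone, 0 to 1 in vehicle and 0 to 2 for rotenone over both genotypes. Without the block it gave 0 to 1 for KO against WT over both treatments and 0 to 1 in vehicle, the 1 coming without the KO vehicle array numbered 3. For number 3 against numbers 1 and 2, the 9 calls became 4 to 9 when 1 array was left out (4 without the WT vehicle or the KO vehicle array numbered 3), 5 without dim probe sets, 4 against number 1 alone, 4 against number 2 alone and 3 with averaged arrays. For the genotype difference between numbers, the 1 call became 0 to 2 when 1 array was left out and 0 without dim probe sets. The cause was not tested. Fits with the block and 1 array left out or another setting were added after seeing the data. With 3 arrays a group, small differences of single Hox genes cannot be resolved.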
